A study of Mus musculus with 4 samples.

Results

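The Slc25 genes encode the mitochondrial carriers, proteins that move metabolites across the inner membrane of mitochondria. A gene was a member when its only symbol in the platform annotation was Slc25a followed by a number, and it was read by its brightest probe set, the group of probes with the highest mean log2 signal over the arrays. There were 44 members among 18193 named genes, covered by 93 probe sets, with 21 members read by 1 probe set and Slc25a5 by 8. Liver RNA of male mice was measured in 4 groups, which were wild type (WT) on chow, LASS2-/- on chow, WT on high-fat diet (HFD) and LASS2-/- on HFD. Lass2 is the older name of Cers2, the ceramide synthase for ceramides with very long acyl chains. Per the labels, fat supplied 10% of the calories in chow and 60% in the HFD, and feeding began at 3 weeks of age. The sources used here give no strain, age at sampling or account of how the allele was made. Each group was 1 array, and the labels do not say whether its RNA came from 1 mouse or from a pool. No value below therefore has an error between animals.

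Carriers of this family share a fold built from repeats of a membrane-spanning motif, and most exchange a substrate in the matrix for another in the cytosol. In liver they connect pathways that run on both sides of the inner membrane: citrate leaves for lipid synthesis, ornithine and aspartate pass for the urea cycle, acylcarnitines enter for fatty acid oxidation, and ADP and phosphate enter as ATP leaves. Other carriers bring in cofactors such as coenzyme A, NAD+, folate and S-adenosylmethionine, or iron and glutathione. Several have no settled substrate.

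Values are log2 signals, so a difference of 1 is a doubling. The median of each array, between 6.17 and 6.28, served as a floor: a signal under it was set to it before a ratio was taken. A carrier passed when it reached the floor on at least 1 array, as 37 members did, and 34 reached it on all 4. Signals of different probe sets are not on a common scale, so each carrier was compared only with itself. In whole tissue, fewer cells of a type and less RNA per cell cannot be told apart. The trimmed mean signal was between 496.0 and 496.2 on every array. Hepatocyte markers were bright on all arrays (5 of 5 above the floor), and their summed linear signal was 194784.5 and 203718.1 on the WT and LASS2-/- chow arrays, and 179539.7 and 170121.7 on the WT and LASS2-/- HFD arrays. Cers2, the targeted gene, had log2 signals of 12.46 in WT and 12.32 in LASS2-/- on chow, and of 12.25 in WT and 12.32 in LASS2-/- on HFD. It was thus not lower on both arrays labelled LASS2-/-. Which stretch of the transcript its probe set reads was not analysed here, so it does not check the labels, and genotype below means the genotype on the label. Macrophage markers summed to 12522.3 and 12361.9 on the WT chow and WT HFD arrays, and to 15687.0 and 16833.4 on the LASS2-/- chow and HFD arrays. Summed endothelial markers were between 3060.9 and 4379.1, stellate ones between 4965.1 and 6267.8, and lymphocyte ones between 981.2 and 1677.1.

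The 250 bases before the annotated start are shown for the carriers that were at least 1.5-fold apart between diets in both genotypes, since these are the promoters of the genes on which the results turn. They are RefSeq sequences on GRCm38.p6, written 5′ to 3′ on the gene's strand, and capitals mark letters that match a searched motif on either strand.
Slc25a30, chr14:75787038-75787287, minus strand: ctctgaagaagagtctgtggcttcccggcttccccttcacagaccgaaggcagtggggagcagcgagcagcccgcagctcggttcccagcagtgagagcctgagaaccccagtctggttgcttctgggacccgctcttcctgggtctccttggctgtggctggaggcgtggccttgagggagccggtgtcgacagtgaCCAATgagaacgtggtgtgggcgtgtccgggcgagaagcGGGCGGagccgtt
Slc25a25, chr2:32424067-32424316, minus strand: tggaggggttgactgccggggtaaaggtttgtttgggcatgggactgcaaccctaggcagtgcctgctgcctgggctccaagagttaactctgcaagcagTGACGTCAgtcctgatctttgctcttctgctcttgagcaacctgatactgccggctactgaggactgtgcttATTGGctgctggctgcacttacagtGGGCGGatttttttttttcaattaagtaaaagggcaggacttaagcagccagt
Slc25a10, chr11:120491587-120491836, plus strand: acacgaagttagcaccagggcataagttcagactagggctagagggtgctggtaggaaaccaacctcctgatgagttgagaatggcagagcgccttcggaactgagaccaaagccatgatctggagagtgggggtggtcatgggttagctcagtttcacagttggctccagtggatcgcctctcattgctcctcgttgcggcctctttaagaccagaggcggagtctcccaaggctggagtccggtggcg
The Slc25a30 window, with 64.4% G and C, held a GC box (GGGCGG) 13 to 8 bases before the start and a CCAAT box (CCAAT) 52 to 48 bases before it. The printed Slc25a25 window, with 51.6% G and C, held the cAMP response element (TGACGTCA) 150 to 143 bases before the start, a CCAAT box on the other strand and a GC box. Slc25a25 has 2 further annotated starts, whose windows held 2 and 3 CCAAT boxes and no cAMP response element. The Slc25a10 window, with 56.0% G and C, matched none of the 9 motifs searched. Windows were found for 34 of the 44 members, and for 30 of the 37 that passed the floor. The windows of these 30 carriers numbered 38. The GC box was found in 29 of the 38, the CCAAT box in 19 and the E-box (CACGTG) in 7, which belong to Slc25a1, Slc25a13, Slc25a14, Slc25a15, Slc25a33 and Slc25a36. Among all 32851 windows of the same length, 32.7% held the GC box, 33.8% the CCAAT box and 6.02% the E-box. The cAMP response element stood in 1.55% of all windows and in 2 of the 38, of Slc25a25 and Slc25a36, and its shorter form (TGACG), which overlaps it, in 17.8% of all windows and 10 of the 38. The nuclear receptor half-site (AGGTCA) stood in 14.0% of all windows and 4 of the 38, and the antioxidant response core (TGACNNNGC) in 10.2% of all windows and 9 of the 38. No passing carrier matched the forkhead core (TGTTTAC), found in 3.17% of windows, or the TATA box (TATAAA), found in 12.4%. A match describes letters only.

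The diet comparison asks which carriers differed between HFD and chow, and it was made once in WT and once in LASS2-/- with no array in common. Most carriers were close to their chow signal: 30 of the 37 (81.1%) were within 1.5-fold in both genotypes, beside 75.8% of all 12444 genes that passed. Slc25a10, the dicarboxylate carrier, was the single member at least 1.5-fold higher on HFD in both genotypes, beside 3.44% of all genes. Slc25a30, a carrier close in sequence to the uncoupling proteins, and Slc25a25, a carrier of ATP-Mg and phosphate, were at least 1.5-fold lower in both, beside 2.19% of all genes. Counts of 1 and 2 among 37 members are too small to set the family apart from that background. The median ratio of HFD over chow was 0.05 in WT and -0.08 in LASS2-/- (log2, 37 members), and 0.02 and -0.00 over all genes.

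The only error the design allows comes from an additive limma model of diet and genotype, in which the disagreement of the 2 diet ratios, moderated by that of genes of like signal, is the error (1 residual degree of freedom per gene). With Benjamini-Hochberg adjusted p below 0.05 over 12444 genes, 2 carriers rose with the HFD (Slc25a10 and Slc25a47), beside 6.16% of all genes, and 3 fell (Slc25a25, Slc25a30 and Slc25a33), beside 5.02%. Without adjustment 11 of the 37 carriers (29.7%) were below p of 0.05 for diet, beside 23.8% of all genes. These calls rest on the trend of the variance with signal: without it no gene of the 12444 passed, with 3 carriers and 1789 genes below an unadjusted p of 0.05. In the plot of diet ratios by role most carriers lie within the band of 1.5-fold in both genotypes (81.1%), as do most genes (75.8%).

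**Figure D1:**
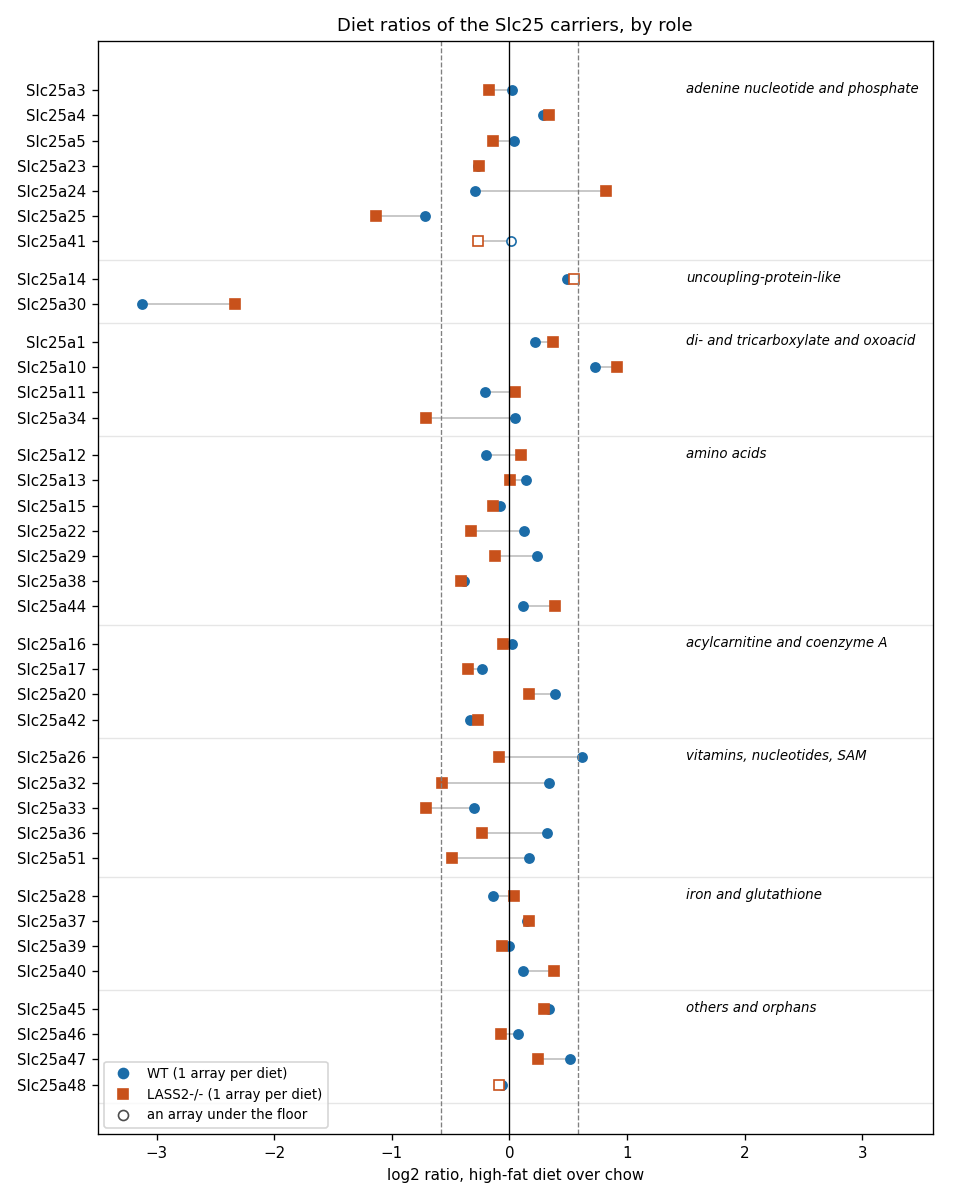
Log2 ratio of HFD over chow (horizontal axis) for the 37 carriers that passed the floor, grouped by role. Blue circles are WT and orange squares LASS2-/-, each 1 array against 1, joined by a grey line whose length is the difference between genotypes. Open symbols have an array under the floor, and dashed lines mark 1.5-fold. Slc25a30 stands far to the left at -3.13 and -2.33, and Slc25a25 and Slc25a10 are the other carriers past the dashed line with both symbols.

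Slc25a30, known from kidney as kidney mitochondrial carrier protein, had the widest diet ratio of the family. Its log2 signal was 13.23 in WT and 13.83 in LASS2-/- on chow, and 10.11 in WT and 11.50 in LASS2-/- on HFD. Both HFD arrays lay under both chow arrays, and on each diet the LASS2-/- array was the higher. The signal on HFD was 8.74-fold lower in WT and 5.03-fold lower in LASS2-/-. In limma it fell by 2.73 ± 0.14 on the log2 scale (moderated standard error, 1 array per group). That error is mostly borrowed from genes of like signal, and the 2 diet ratios of Slc25a30 itself lay 0.80 apart. Among all 12444 genes, 5 had a lower diet ratio in WT and 9 had a lower one in LASS2-/-. Several probe sets showed it: 3 of the 5 probe sets of the gene were above the floor on all arrays, and their signals were 8.74 to 13.2-fold lower in WT and 5.03 to 5.31-fold lower in LASS2-/-. Another probe set was under the floor on the WT HFD array alone and was lower with the HFD in both genotypes, and the last was under the floor on every array. The summed hepatocyte markers were also lower on HFD in both genotypes (194784.5 and 179539.7 on WT chow and HFD, 203718.1 and 170121.7 on LASS2-/- chow and HFD), and their part in the Slc25a30 values was not tested.

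**Figure D2:**
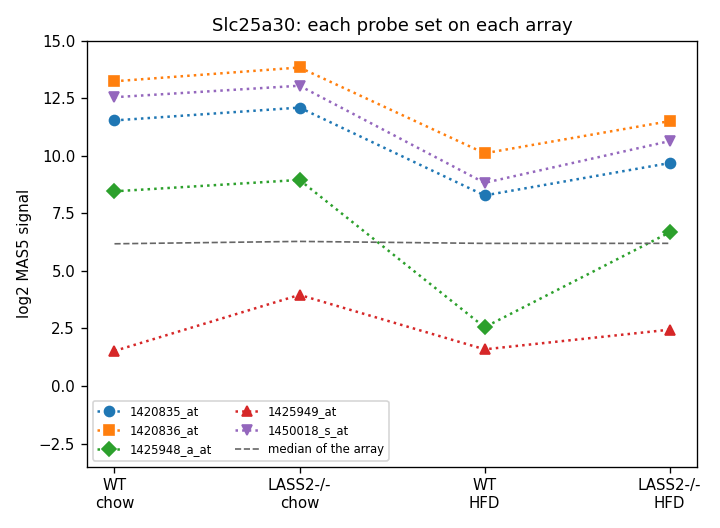
Log2 MAS5 signal (vertical axis) of each of the 5 Slc25a30 probe sets on the 4 arrays, with the median of each array as a dashed line. Dotted lines join 1 probe set across arrays and are no time course. The 3 brightest probe sets run in parallel, low on both HFD arrays and lowest on the WT HFD array, and the dimmest stays under the median throughout.

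Its near relatives gave little signal. Slc25a14, a brain-enriched uncoupling-like carrier, had 6.52 in WT and 4.75 in LASS2-/- on chow, and 7.01 in WT and 6.83 in LASS2-/- on HFD. The LASS2-/- chow array was under the floor, so its diet ratio in LASS2-/- is at least 0.55 and that in WT was 0.49 (log2). Slc25a27, another brain carrier of this branch, was under the floor on all arrays, as was Ucp1, the uncoupling protein of brown fat, which carries a symbol of another kind.

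Among carriers of adenine nucleotides and phosphate, Slc25a25 was the member that fell. It is a calcium-regulated carrier that exchanges ATP-Mg for phosphate and so sets the pool of adenine nucleotides in the matrix. Its log2 signal was 10.98 in WT and 11.06 in LASS2-/- on chow, and 10.26 in WT and 9.92 in LASS2-/- on HFD. The HFD arrays both lay under the chow arrays, by 0.72 in WT and 1.14 in LASS2-/-, which gave -0.93 ± 0.13 in limma (adjusted p = 0.0003). All 3 probe sets of the gene had lower signals on HFD in both genotypes, the dimmest reaching -0.22 in WT. When its probe sets were averaged, the diet ratio no longer reached 1.5-fold in both genotypes, and the adjusted p in limma was 0.0501.

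No other ATP-Mg carrier passed limma for diet. Slc25a24, of the same calcium-regulated branch, had 7.93 in WT and 8.16 in LASS2-/- on chow, and 7.64 in WT and 8.98 in LASS2-/- on HFD. It was the highest on the LASS2-/- HFD array and the lowest on the WT HFD array, so that its diet ratio was -0.29 in WT and 0.82 in LASS2-/-. Its second probe set was under the floor on all arrays. The summed lymphocyte markers were likewise highest on the LASS2-/- HFD array (1677.1, beside 981.2, 1114.7 and 1052.1 on WT chow, LASS2-/- chow and WT HFD), as were the macrophage markers, and their part in the Slc25a24 values was not tested. Of the 4 lymphocyte markers analysed, 2 reached the floor on any array and 1 on all arrays, so that sum rests on few genes. Slc25a23, also of this branch, was lower on HFD by nearly the same amount in WT (-0.26) and LASS2-/- (-0.26), with an adjusted p of 0.19 in limma. Slc25a41, a calcium-independent relative, reached the floor on the LASS2-/- chow array alone (6.46).

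The carriers that serve ATP synthase were level. Slc25a5, the main ADP/ATP translocase of dividing and liver cells, had 14.58 in WT and 14.70 in LASS2-/- on chow, and 14.62 in WT and 14.56 in LASS2-/- on HFD, a range of 0.14 over all arrays. Slc25a3, the phosphate carrier, had 14.22 in WT and 14.28 in LASS2-/- on chow, and 14.25 in WT and 14.11 in LASS2-/- on HFD. Neither passed limma for diet (adjusted p = 0.746 and 0.65). Slc25a4, the translocase typical of heart and muscle, had 8.57 in WT and 8.68 in LASS2-/- on chow, and 8.86 in WT and 9.01 in LASS2-/- on HFD. Both HFD arrays were above both chow arrays, by 0.29 and 0.34 within genotypes, and the adjusted p was 0.301. Skeletal muscle markers were near the floor (3 of 5 reached it on any array, none on all), with a summed signal between 251.8 and 317.4. Slc25a31, the translocase of the testis, was under the floor throughout.

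Of the carriers of dicarboxylates, citrate and oxoacids, Slc25a10 rose with the HFD. It exchanges malate or succinate for phosphate, and is known for high expression in liver and white fat. Its log2 signal was 11.11 in WT and 10.66 in LASS2-/- on chow, and 11.84 in WT and 11.58 in LASS2-/- on HFD. Both HFD arrays were above both chow arrays, and on each diet the LASS2-/- array was the lower. The diet ratio was 0.73 in WT and 0.92 in LASS2-/-, and 0.82 ± 0.11 in limma (adjusted p = 0.0002). A second probe set gave wider ratios of 1.17 and 1.31. Of the 4 adipocyte markers analysed, Retn alone reached the floor on any array, and none reached it on all arrays. Their summed signal was between 40.6 and 125.3.

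Slc25a1, which exports citrate for fatty acid and sterol synthesis, had 11.46 in WT and 11.47 in LASS2-/- on chow, and 11.68 in WT and 11.84 in LASS2-/- on HFD. Its HFD arrays were the higher, by 0.22 and 0.37, but it missed the limma threshold (adjusted p = 0.0838). Slc25a11, the oxoglutarate carrier of the malate-aspartate shuttle, had diet ratios of -0.21 in WT and 0.05 in LASS2-/-, of opposite sign. Slc25a34, a carrier with no settled substrate, had 7.67 in WT and 8.33 in LASS2-/- on chow, and 7.72 in WT and 7.62 in LASS2-/- on HFD. Its LASS2-/- chow array stood above the other 3, which lay within 0.10 of each other. Its relative Slc25a35 was under the floor on all arrays.

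No amino acid carrier passed limma for diet or genotype. Slc25a15, the ornithine carrier of the urea cycle, had 13.80 in WT and 13.93 in LASS2-/- on chow, and 13.73 in WT and 13.79 in LASS2-/- on HFD, a range of 0.21. Slc25a13 (citrin), the aspartate/glutamate carrier of liver, had 12.53 in WT and 12.40 in LASS2-/- on chow, and 12.67 in WT and 12.41 in LASS2-/- on HFD. For both, the diet ratios were within 0.15 of 0 in each genotype. Slc25a12, the aspartate/glutamate carrier of muscle and brain, had ratios of -0.20 in WT and 0.10 in LASS2-/-. Slc25a22, a glutamate carrier, had 10.30 in WT and 10.73 in LASS2-/- on chow, and 10.42 in WT and 10.40 in LASS2-/- on HFD, with the LASS2-/- chow array above the rest. Slc25a38, which brings in glycine for haem synthesis, was lower on HFD by nearly the same amount in WT (-0.39) and LASS2-/- (-0.41), and its adjusted p was 0.114. Slc25a44, a carrier of branched-chain amino acids, had diet ratios of 0.11 in WT and 0.39 in LASS2-/-. A second probe set gave 0.23 and 0.47, and the dimmest, also above the floor on all arrays, 0.15 and -0.97. Slc25a29, which carries basic amino acids, had 0.24 in WT and -0.12 in LASS2-/-. Of its dimmer probe sets above the floor on all arrays, 1 gave -0.49 and -1.15 and another 0.27 and -0.66. The Slc25a29 probe sets thus disagree in WT and in the size of the fall in LASS2-/-. Slc25a2 and Slc25a18, further carriers of ornithine and glutamate, were under the floor.

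The carriers of acylcarnitine and coenzyme A stayed within 1.5-fold. Slc25a20, which exchanges acylcarnitine for carnitine in fatty acid oxidation, had 13.18 in WT and 13.33 in LASS2-/- on chow, and 13.56 in WT and 13.49 in LASS2-/- on HFD. Both HFD arrays were above both chow arrays, by 0.39 and 0.16 within genotypes. Its adjusted p was 0.0607 in limma and 0.033 after quantile normalization. A second probe set, also above the floor on all arrays, gave 0.31 in WT and -0.04 in LASS2-/-, so it was not higher on HFD in LASS2-/-. Slc25a42, a carrier of coenzyme A, had 9.55 in WT and 9.46 in LASS2-/- on chow, and 9.21 in WT and 9.20 in LASS2-/- on HFD. Here both HFD arrays were the lower, by 0.34 and 0.26, with an adjusted p of 0.243. Slc25a17, the carrier of peroxisomes for coenzyme A and related cofactors, gave -0.23 and -0.35 in WT and LASS2-/-, and Slc25a16, linked to coenzyme A, gave 0.02 and -0.06. Neither passed limma.

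Carriers of cofactors and nucleotides held the last of the members that fell. Slc25a33, a pyrimidine nucleotide carrier, had 10.83 in WT and 10.98 in LASS2-/- on chow, and 10.52 in WT and 10.27 in LASS2-/- on HFD. Both HFD arrays were under both chow arrays, by 0.30 in WT and 0.71 in LASS2-/-, and limma gave -0.50 ± 0.13 (adjusted p = 0.0214). Its adjusted p was 0.0534 after quantile normalization and 0.0807 with the arrays scaled to equal medians. The other 4 members of the group had diet ratios above 0 in WT and below 0 in LASS2-/-. Slc25a32, which carries folate and FAD, had 9.84 in WT and 10.22 in LASS2-/- on chow, and 10.18 in WT and 9.65 in LASS2-/- on HFD. It was higher on HFD by 0.34 in WT and lower by 0.57 in LASS2-/-, which is opposite. A second probe set gave 0.08 and -0.60, and the dimmest 0.09 and 0.33, so the probe sets disagree in LASS2-/-. Slc25a51, the NAD+ carrier, had 12.59 in WT and 12.87 in LASS2-/- on chow, and 12.75 in WT and 12.39 in LASS2-/- on HFD, with diet ratios of 0.17 and -0.49. Its other 2 probe sets gave -0.18 and -0.15 in WT, so only the lower value in LASS2-/- was shared by all 3. Slc25a26, the S-adenosylmethionine carrier, had 8.17 in WT and 8.14 in LASS2-/- on chow, and 8.78 in WT and 8.05 in LASS2-/- on HFD, with the WT HFD array above the rest. Its second probe set, also above the floor on all arrays, was highest on LASS2-/- chow instead (7.18, beside 6.90 on WT HFD) and had a genotype ratio of 0.17 on HFD against -0.73, so the probe sets disagree. Slc25a36, a second pyrimidine nucleotide carrier, had diet ratios of 0.32 in WT and -0.24 in LASS2-/-.

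Iron and glutathione carriers showed no diet call. Slc25a37 (mitoferrin 1), which supplies iron for haem, had 9.86 in WT and 9.58 in LASS2-/- on chow, and 10.01 in WT and 9.75 in LASS2-/- on HFD. The diet ratio was 0.15 in WT and 0.17 in LASS2-/-, and the LASS2-/- array was the lower on both diets. Of the erythroid markers 4 were analysed, and Alas2 alone reached the floor. Their summed signal was 1862.6 and 1578.2 in WT and LASS2-/- on chow, and 1683.2 and 1321.7 on HFD, also lower on the LASS2-/- arrays, and its part in the Slc25a37 values was not tested. Slc25a39, a glutathione carrier, had diet ratios of -0.00 in WT and -0.06 in LASS2-/-, and its relative Slc25a40 had 0.11 and 0.38. Slc25a28 (mitoferrin 2) gave -0.14 and 0.04.

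Slc25a47, a carrier found mainly in liver, rose with the HFD. Its log2 signal was 14.12 in WT and 14.16 in LASS2-/- on chow, and 14.64 in WT and 14.40 in LASS2-/- on HFD. The HFD arrays were above the chow arrays by 0.52 and 0.24, and limma gave 0.38 ± 0.08 (adjusted p = 0.0091). Its single probe set is of a kind that may read several transcripts (its name ends in _s_at), so the call rests on that probe set alone. Slc25a45, an amino acid carrier by sequence, was higher on HFD by 0.34 in WT and 0.30 in LASS2-/-, with an adjusted p of 0.232. Slc25a46, which sits in the outer membrane and acts in mitochondrial shape, gave 0.07 and -0.07. Slc25a48 reached the floor on both WT arrays only (6.43 on chow and 6.36 on HFD), and Slc25a53 and Slc25a54 on no array.

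**Figure D3:**
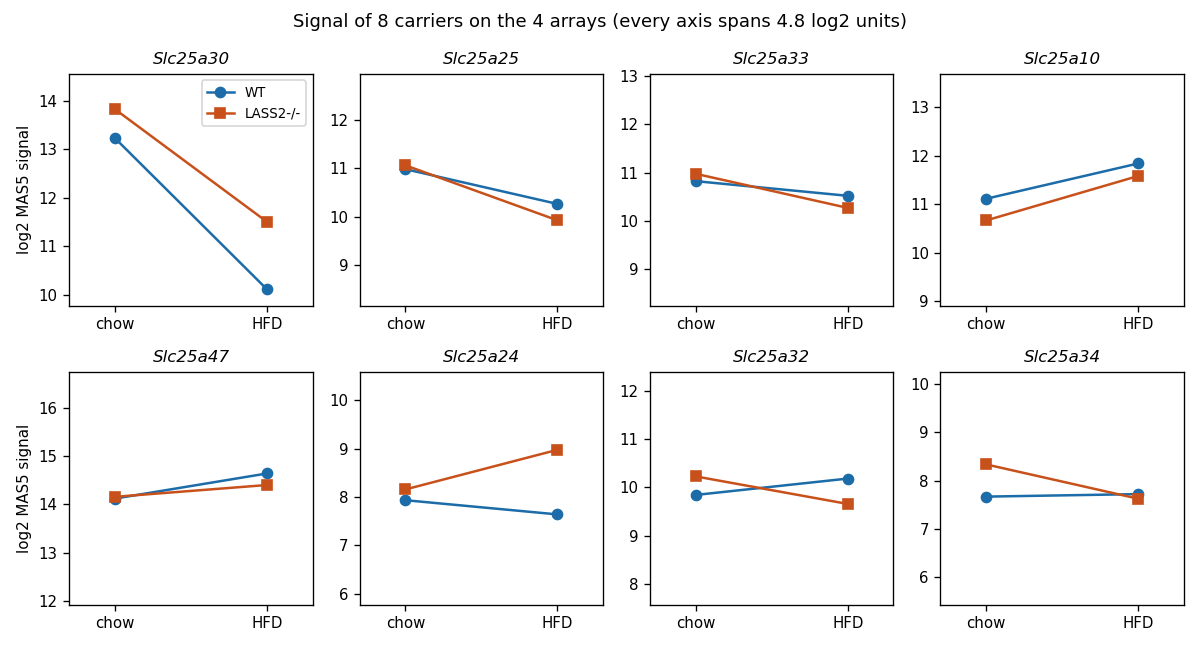
Log2 MAS5 signal (vertical axis) of 8 carriers on chow and HFD, with WT as blue circles and LASS2-/- as orange squares, 1 array per point. Axes differ in position but span the same range, so slopes compare across panels while heights do not. The lines of Slc25a30, Slc25a25 and Slc25a33 fall and those of Slc25a10 and Slc25a47 rise in both genotypes, whereas those of Slc25a24 and Slc25a32 run in opposite directions.

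The genotype comparison asks which carriers differed between the arrays labelled LASS2-/- and WT on each diet. Of the 37 carriers, 33 (89.2%) were within 1.5-fold on both diets, beside 83.8% of all genes. Slc25a30 was the only one at least 1.5-fold higher on both diets, beside 0.98% of all genes, and none was lower on both, beside 0.338%. In limma Slc25a30 alone rose, beside 0.514% of all genes, and no carrier fell, beside 0.338%. Without adjustment 5 carriers (13.5%) were below p of 0.05, beside 10.3% of all genes. The median genotype ratio of the carriers was 0.06 on chow and -0.09 on HFD, beside 0.03 and 0.00 over all genes.

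Slc25a30 was 1.51-fold higher in LASS2-/- on chow and 2.63-fold higher on HFD, and limma gave 0.997 ± 0.14 on the log2 scale (adjusted p = 0.0044). The 3 probe sets above the floor on all arrays gave 1.41 to 1.51-fold on chow and 2.63 to 3.51-fold on HFD, so on chow only the brightest of them reached 1.5-fold. For that brightest probe set the log2 ratios were 0.60 on chow and 1.40 on HFD. The limma error, mostly borrowed from other genes, is smaller than that gap. On HFD 52 genes had a higher genotype ratio than Slc25a30, and on chow 673 had. The call did not hold under every setting: with the arrays scaled to equal medians the ratio on chow was under 1.5-fold, and the adjusted p was 0.0603 after quantile normalization, 0.111 with equal medians, and 0.402 with robust moderation. Scaling to equal medians itself moved the median genotype ratio on chow over the 10111 genes measured on all arrays from 0.00 to -0.10, and that of the diet ratio in LASS2-/- from 0.03 to 0.11. Over all genes the limma genotype calls went from 64 that rose and 42 that fell to 9 and 10 under that scaling, and the genes 1.5-fold apart on both diets from 122 higher and 42 lower to 93 and 68. The summed macrophage markers were also higher on both LASS2-/- arrays, with Marco passing limma for genotype, and their part in the Slc25a30 values was not tested.

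Read by the brightest probe set, other carriers kept the sign of the genotype ratio on both diets without passing limma. For Slc25a26 another probe set above the floor on all arrays had the opposite sign on both diets, with 0.53 on chow and 0.17 on HFD. The dimmest Slc25a44 probe set, also above the floor, had the opposite sign on chow alone, with 0.67 on chow and -0.46 on HFD. A further Slc25a44 probe set kept the sign, with -0.32 and -0.07. Slc25a24 was higher in LASS2-/- by 0.22 on chow and 1.34 on HFD (adjusted p = 0.25), and Slc25a26 was lower by 0.03 and 0.73 (adjusted p = 0.626). Slc25a10 was lower in LASS2-/- by 0.45 on chow and 0.26 on HFD (adjusted p = 0.203), Slc25a44 by 0.49 and 0.21 (adjusted p = 0.328), and Slc25a37 by 0.28 and 0.27 (adjusted p = 0.535). Slc25a16 had ratios of -0.23 and -0.30 (adjusted p = 0.307).

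The genotype ratio was then compared between diets, as its value on HFD minus that on chow, which by construction equals the diet ratio in LASS2-/- minus that in WT. The fit leaves no error for it, so the values carry no test. Among the 34 carriers measured on all arrays, 6 (17.6%) differed by 1.5-fold or more, beside 13.7% of 10111 genes, and the median size was 0.21 for carriers and for all genes. The widest was Slc25a24, where the ratio went from 0.22 on chow to 1.34 on HFD, a difference of 1.11. Slc25a32 followed with -0.91, Slc25a30 with 0.80, Slc25a34 with -0.76, Slc25a26 with -0.70 and Slc25a51 with -0.66. After averaging each gene's probe sets, the difference of Slc25a24 was 0.60 and that of Slc25a32 was -0.45.

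The cofactor and nucleotide carriers were singled out here after their values were seen. By the brightest probe set, the genotype ratio was lower on HFD than on chow in all 5 (Slc25a26, Slc25a32, Slc25a33, Slc25a36 and Slc25a51). The median was 0.29 on chow and -0.37 on HFD, with a median difference of -0.66. The same sign was found in 21 of 34 carriers (61.8%) and in 48.8% of all genes. By role it stood in 3 of 3 carriers without a listed role and in 5 of 7 amino acid carriers. It stood in 3 of 4 carriers of acylcarnitine and coenzyme A and in 3 of 6 of adenine nucleotides and phosphate. It stood in 1 of 4 carriers of dicarboxylates and oxoacids, in 1 of 4 of iron and glutathione, and not in Slc25a30. With the arrays scaled to equal medians it stood in 5 of the 5 cofactor and nucleotide carriers, in 16 of 34 carriers (47.1%) and in 34.7% of all genes. With the mean of a gene's probe sets it stood in the 4 cofactor and nucleotide carriers that were still measured on all arrays. The dimmest Slc25a32 probe set, above the floor on all arrays, had the opposite sign, with ratios of -0.20 on chow and 0.04 on HFD. Other probe sets of these 5 carriers above the floor on all arrays shared the sign. The chart of both genotype ratios plots the values of the brightest probe sets, with Slc25a30 and Slc25a24 set apart at the top.

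**Figure D4:**
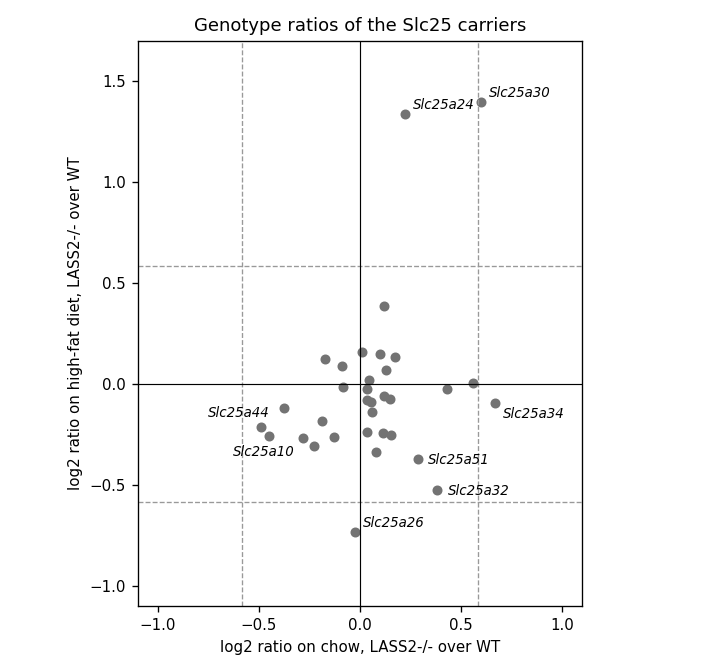
Log2 ratio of LASS2-/- over WT on chow (horizontal axis) and on HFD (vertical axis) for the 34 carriers measured on all arrays, 1 point per carrier and 1 array against 1 for each ratio. Dashed lines mark 1.5-fold and the scales of both axes are equal. Slc25a30 is the only point past both dashed lines in 1 direction (0.60 and 1.40), and Slc25a24 is high on HFD alone (0.22 and 1.34).

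Genes of the pathways that the carriers serve were counted from lists, and each count stands beside a background of 6.16% of all 12444 genes that rose and 5.02% that fell with the HFD in limma. The list of tricarboxylic acid cycle, respiratory chain, ATP synthase and other mitochondrial genes served as a gauge of mitochondrial transcripts in general. Its 16 genes had median diet ratios of -0.09 in WT and -0.14 in LASS2-/-, and 3 fell in limma and none rose. Those that fell were Fh1 (fumarase, -0.40 and -0.51), Tomm20 (an import receptor, -0.31 and -0.40) and Hspd1 (a chaperone, -0.25 and -0.43). The diet ratios of Slc25a30, -3.13 and -2.33, lay below those of all 16 genes. Of proteins that bring carriers to the inner membrane, Timm9 (-0.41 and -0.74) and Timm10 (-0.31 and -0.54), small chaperones of the intermembrane space, fell and none of the 5 analysed rose.

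Carnitine and fatty acid oxidation genes, which stand beside Slc25a20, had median diet ratios of 0.27 in WT and 0.07 in LASS2-/- over 14 genes. Crat (carnitine acetyltransferase) rose, with ratios of 1.12 and 0.55 (adjusted p = 0.0072), and no other of the 14 passed. Of the 6 urea cycle genes, which stand beside Slc25a15 and Slc25a13, Cps1 (-0.34 and -0.48) and Asl (-0.35 and -0.39) fell and none rose. Among 7 enzymes of the malate-aspartate shuttle and citrate export, Cs (citrate synthase) rose, by 0.66 and 1.04, and Got1 (the cytosolic aspartate aminotransferase) fell, with ratios of -1.23 and -0.79. Of the carrier-fold proteins with other symbols, the pyruvate carrier and the porins, 8 were analysed, 7 passed the floor and 1 passed limma: Mpc1 (a subunit of the pyruvate carrier) rose with 0.41 and 0.24 (adjusted p = 0.0185).

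Of 12 regulators of mitochondrial and liver genes, 2 rose and 5 fell with the HFD, beside 6.16% and 5.02% of all genes. Ppara, the receptor that drives fatty acid oxidation genes, rose with ratios of 0.42 and 0.37, and Srebf1, the activator of lipid synthesis, rose with 0.25 and 1.45. The ones that fell were Esr1 (oestrogen receptor, -1.06 and -1.24), Foxa2 (-1.31 and -0.51), Ppargc1a (a coactivator of mitochondrial genes, -0.62 and -0.70), Mlxipl (-0.56 and -0.73) and Hnf4a (-0.24 and -0.40). Srebf1 was the only gene of these pathway lists that passed limma for genotype, and it fell, by 1.76 on chow and 0.56 on HFD. Medians of all genes were 0.02 and -0.00 for the diet in WT and LASS2-/-. Whether any regulator acts on a carrier was not tested.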

How the data were processed

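Liver RNA was hybridised to Affymetrix 3′ expression arrays, 1 array in each of 4 groups. The authors deposited a log2 signal for every probe set on each array, made with MAS5 per the submitters' processing notes, whose version and scaling target the sources used here do not give. Of 45037 probe sets, 34945 had 1 gene symbol in the platform annotation, 932 had several and were left out, and 9160 had none. A gene passed when its brightest probe set reached the array median on at least 1 array. Ratios were taken after flooring at that median, and a gene counted as apart when both ratios that share no array passed 1.5-fold the same way. Diet and genotype were fitted together in limma 3.58.1 (R 4.3.3) on unfloored log2 values of all 12444 genes, with a variance trend, 1 residual degree of freedom and a median of 12.4 prior ones, so standard errors are mostly borrowed from genes of like signal. The fit was also run on simulated data with no genotype effect and independent noise whose spread depended on signal alone. Such data cannot check genes whose spread departs from that of genes of like signal. Other steps ran in Python 3.11.15 with pandas 2.3.3, numpy 2.4.6 and, for plots, matplotlib 3.10.9. The number of arrays limits the precision. The p-values measure the disagreement between the diet ratios of the genotypes, moderated by that of genes of like signal. No group has a replicate, so they measure no spread between animals or between arrays of a group.

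Carriers named with a value on each array were those apart or passing limma, the 4 with the largest difference of the genotype ratio between diets, and a list of anchor carriers; up to 4 genes were named per pathway list. The other members are named with fewer values. Foxa2, Mlxipl and other regulators past that number were named after their values were seen. The members, roles, lists, motifs and rules were chosen with earlier results of these data known. The Slc25a genes in the gene table that are not members (3 of 47), and Ucp2, Mpc2 and other listed genes without a named probe set, were not analysed here.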

Additional observations from a re-analysis of the deposited data

Results flagged for a closer look

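Carriers are given here when their ratios pointed in opposite directions in the 2 arms of the design and differed by at least 1.5-fold, a size chosen for this purpose. Each ratio is 1 array against 1, and the difference between arms was not tested.

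For the diet ratio, from WT to LASS2-/-, the values were as follows. Slc25a24 went from -0.29 to 0.82, a difference of 1.11. Slc25a26 went from 0.62 to -0.09 (-0.70), and Slc25a32 from 0.34 to -0.57 (-0.91). Slc25a34 went from 0.05 to -0.71 (-0.76), and Slc25a51 from 0.17 to -0.49 (-0.66). Of the 5, Slc25a24 was the only one higher in LASS2-/-. These values are of the brightest probe sets. The other Slc25a51 probe sets gave -0.18 and -0.50, and -0.15 and -0.63, so they were not opposite. The dimmest Slc25a32 probe set gave 0.09 and 0.33, also not opposite. The second probe sets of Slc25a32 (0.08 and -0.60) and Slc25a26 (0.25 and -0.11) were opposite.

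For the genotype ratio, from chow to HFD, Slc25a32 went from 0.38 to -0.53 (-0.91), Slc25a34 from 0.67 to -0.10 (-0.76) and Slc25a51 from 0.29 to -0.37 (-0.66). These are the same differences as for the diet ratio, since both are made from the same 4 arrays. The dimmest Slc25a32 probe set went the other way, from -0.20 to 0.04. Other probe sets of Slc25a32 and Slc25a51 kept the direction.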

How the results depend on the processing

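Counts of carriers changed under these settings. At 2-fold, 0 carriers were higher with the HFD in both genotypes, 1 was lower (Slc25a30), and 0 were higher by genotype on both diets. With the mean of all probe sets, 1 was lower with the HFD, and the difference between diets was 0.60 for Slc25a24 and -0.45 for Slc25a32. With arrays scaled to equal medians, 0 were higher by genotype. A floor at the 25th percentile gave 2 higher (Slc25a41 added) and 1 lower (Slc25a48) by genotype. In limma, 1 carrier rose with diet without probe sets ending in _x_at or _s_at, and 0 rose and 0 fell without the trend. After quantile normalization 3 rose with diet (Slc25a20 added) and 2 fell (Slc25a33 lost). With equal medians 2 fell with diet (Slc25a33 lost), and with the mean of all probe sets 2 fell (Slc25a25 lost). For genotype, 0 rose in limma after quantile normalization, with equal medians, without the trend and with robust moderation, where 5, 6, 3 and 7 carriers were below an unadjusted p of 0.05. Slc25a30 had an adjusted p of 0.741 for genotype without the trend. The cause of these changes was not tested.

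No paired analysis was possible because the labels carry no replicate numbers and each group is 1 array. Leaving out an array was not run, since each is the only one of its group. Signals near the floor limit the ratios of Slc25a14, Slc25a41 and Slc25a48. Some of these ratios are bounds, and others have both arrays under the floor and so give no ratio.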
